A study of Mus musculus with 6 samples.

Results

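The genes described here are 10 core genes of the Notch pathway: the ligands Dll1, Dll4, Jag1 and Jag2, the receptors Notch1, Notch2, Notch3 and Notch4, and the target genes Hey1 and Hes1. They were picked by name, and each was represented by the probe set that names that gene alone and has the highest mean signal over all arrays. All 10 had such a probe set, out of 19937 genes measured this way. Expression was measured in 6 whole tumors of the mouse mammary carcinoma line 4T1, each grown from 750000 cells placed in mammary gland number 4 of Balb/C mice. From day 7 after injection, 3 mice received water and 3 received TKI258 at 40 mg/kg, by mouth and daily for 14 days. TKI258 (dovitinib) is a small molecule inhibitor of receptor tyrosine kinases, among them the receptors of FGF, VEGF and PDGF. No genotype difference separates the groups, the mice of both groups carry the same transplanted line, and the labels give neither sex nor age. The question was how treatment altered tumor transcripts, with 1 array per tumor.

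Notch signaling passes between touching cells. A ligand of the Delta (Dll) or Jagged (Jag) kind on a cell binds a Notch receptor on its neighbor, the receptor is cut by an ADAM protease and then by gamma-secretase, and the freed intracellular domain enters the nucleus, where with RBPJ and a Mastermind protein it turns on genes such as Hes1, Hey1 and Nrarp. In growing vessels VEGF raises Dll4 in the tip cells that lead sprouts, and Dll4 acts through Notch1 on the following stalk cells to restrain further sprouting. Jag1 opposes Dll4 in that setting, Notch4 is made mainly by endothelium, and Notch3 mainly by the mural cells around vessels.

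To show the sequence in front of the genes that the results turn on, the 250 bases before the start site of Dll4, Notch2, Lfng and Nrarp are given here, 5′ to 3′, from RefSeq (GRCm38.p6), with the strand in brackets. Capitals mark TGGGAA, the core of the motif bound by RBPJ, on the strand shown or as its reverse complement TTCCCA.
Dll4, chr2:119325534-119325783 (+): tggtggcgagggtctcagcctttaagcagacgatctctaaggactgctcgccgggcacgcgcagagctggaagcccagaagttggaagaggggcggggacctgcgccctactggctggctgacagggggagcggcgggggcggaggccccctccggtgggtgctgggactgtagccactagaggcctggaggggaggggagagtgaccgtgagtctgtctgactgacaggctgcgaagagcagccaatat
Notch2, chr3:98013288-98013537 (+): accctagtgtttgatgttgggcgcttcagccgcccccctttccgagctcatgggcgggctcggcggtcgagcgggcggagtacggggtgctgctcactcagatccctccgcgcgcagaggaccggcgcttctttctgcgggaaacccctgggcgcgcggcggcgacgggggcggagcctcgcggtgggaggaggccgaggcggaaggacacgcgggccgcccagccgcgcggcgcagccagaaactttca
Lfng, chr5:140607091-140607340 (+): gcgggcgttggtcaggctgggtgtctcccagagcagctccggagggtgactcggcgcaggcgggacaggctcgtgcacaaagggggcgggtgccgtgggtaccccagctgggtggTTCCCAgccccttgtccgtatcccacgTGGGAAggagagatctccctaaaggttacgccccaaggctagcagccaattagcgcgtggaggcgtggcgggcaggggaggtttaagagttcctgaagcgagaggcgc
Nrarp, chr2:25180508-25180757 (+): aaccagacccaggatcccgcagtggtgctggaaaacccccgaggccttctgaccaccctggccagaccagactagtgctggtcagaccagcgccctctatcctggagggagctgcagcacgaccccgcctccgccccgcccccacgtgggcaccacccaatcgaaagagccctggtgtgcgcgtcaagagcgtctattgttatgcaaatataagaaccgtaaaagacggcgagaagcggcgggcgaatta

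A window was matched for 8 of the 10 members (9 windows, since Dll1 has more than 1 start), and Hes1 and Hey1 were not analysed here for sequence. TGGGAA was searched on both strands, and 0 of the 9 member windows hold it, against 21.6% of all 32841 windows of 250 bases. Of 51 windows of other pathway genes, 12 hold it, those of Lfng, Rbpj, Maml2, Maml3, Spen, Hes5, Hey2, Poglut1, Psen2, Psenen and Dtx2. Lfng, Rbpj and Hes5 hold it on both strands, and Lfng and Hey2 hold it within the longer form CGTGGGAA, which 0.636% of all windows hold. A match is a description of the letters and not a bound site.

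The tumors differ in cell content in ways that touch the results below. Of 8 markers of tumor epithelium, 7 lay above the median of every array (array medians 6.38 to 6.44, log2 signal). Their mean was 8.75, 8.13 and 8.44 in water replicates 1, 2 and 3 and 8.75, 8.57 and 8.88 in TKI258 replicates 1, 2 and 3. It was lowest in water replicate 2 and overlapped between groups. The mean of 7 measured B cell markers was 9.25 in TKI258 replicate 3 and 6.98 in water replicate 1, against 4.62 to 4.94 in the other 4 tumors, and the mean of 6 T cell markers was 8.21 and 6.85 against 5.77 to 6.06. The keratinocyte marker mean was 7.50 and 7.24 in water replicates 2 and 3 and 5.19 to 5.46 elsewhere. The adipocyte marker mean was 5.97 to 7.09 in water and 7.21 to 8.76 in TKI258 tumors. Macrophage markers (9.77 to 10.36 in water, 9.66 to 9.84 in TKI258), fibroblast markers (9.39 to 9.61 and 9.46 to 9.82) and arterial markers (6.35 to 6.48 and 6.46 to 6.47) overlapped between groups. In whole tumors, fewer cells of a type and less RNA per cell cannot be told apart.

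Among the 10 genes, the groups separated for the ligand Dll4, which had lower signal in all 3 TKI258 tumors, and for the receptor Notch2, which had higher signal in all 3. The other 8 overlapped between groups. Dll4 was 1.47-fold lower and Notch2 1.29-fold higher, and neither passed limma's test with Benjamini-Hochberg adjustment over all probe sets (adjusted p = 0.562 and 0.574). Over the whole array, 0 of 34760 probe sets passed in either direction (0%), while 2803 had an unadjusted limma p under 0.05. Among all genes, 6.49% had every TKI258 tumor below every water tumor and 8.66% had every TKI258 tumor above. At 1 member each way of 10, the members' shares are near these. Of the members 6 had a lower mean in TKI258 tumors, against 43.4% of all genes, and the median difference was -0.05 against 0.02 over all genes (log2, TKI258 minus water). By unadjusted limma p, 1 member was under 0.05 in each direction, against 3.35% (lower), 3.79% (higher) and 7.14% (either) of all genes.

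**Figure D1:**
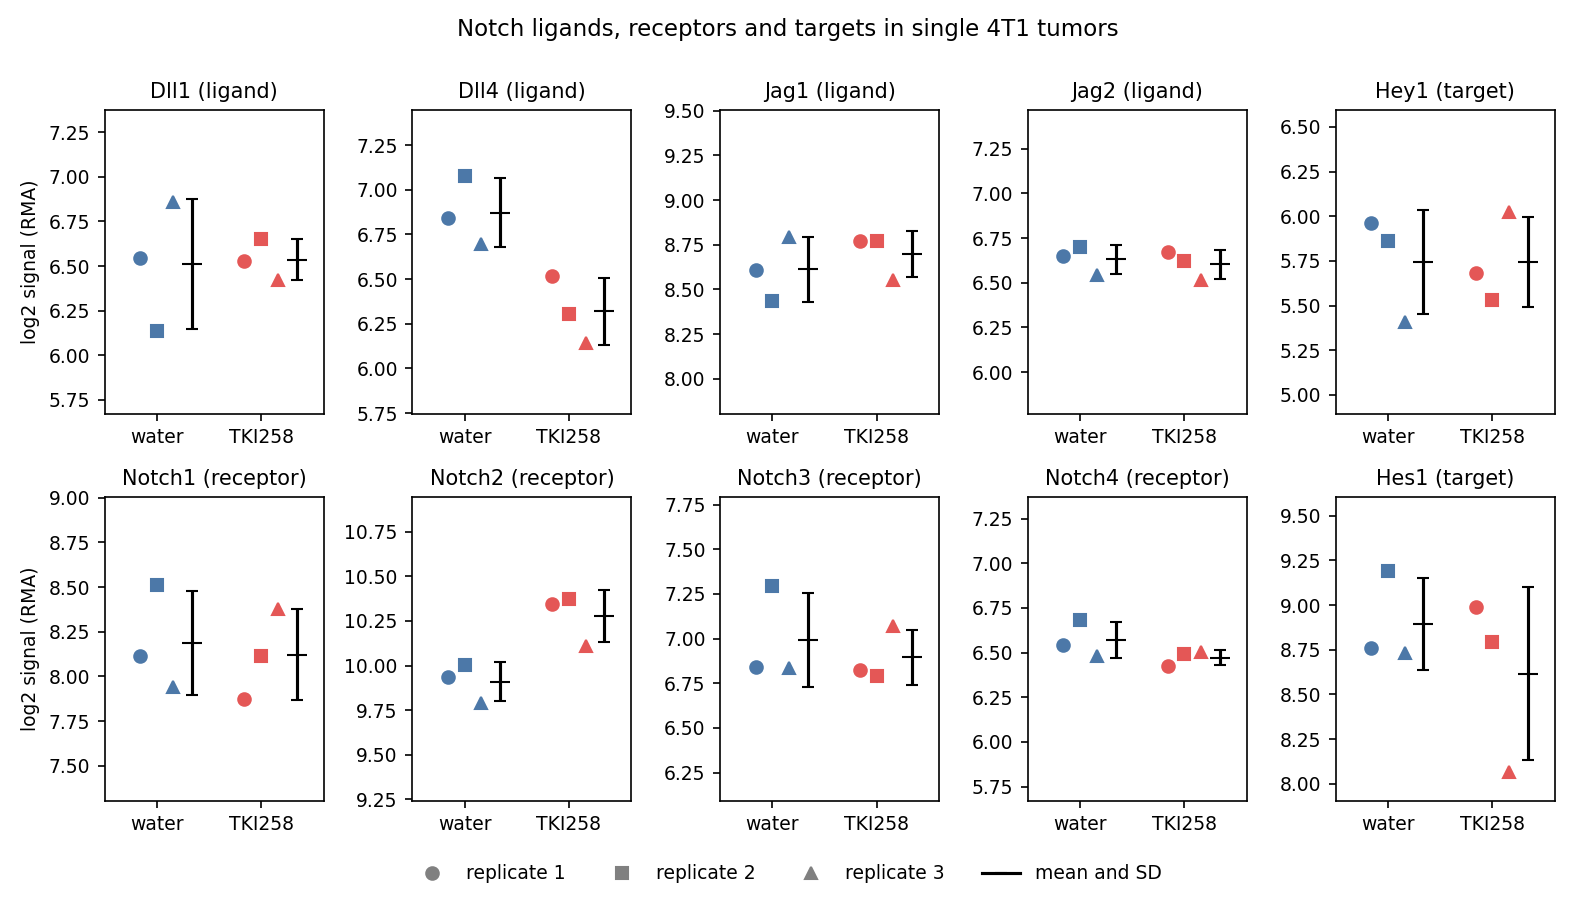
Log2 signal of each member in the 3 water (blue) and 3 TKI258 (red) tumors, with a marker shape per replicate number and the group mean ± SD as a black bar; every panel spans the same log2 range. Dll4 (6.70 to 7.08 in water, 6.14 to 6.52 in TKI258) and Notch2 (9.79 to 10.002 and 10.11 to 10.38) are the panels in which the groups do not overlap.

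Of the ligands, Dll4 had the largest difference of the 10 members. Its log2 signal was 6.84, 7.08 and 6.70 in water replicates 1, 2 and 3, and 6.52, 6.31 and 6.14 in TKI258 replicates 1, 2 and 3. Every treated tumor lay below every water tumor, with a gap of less than the SD of either group between the nearest tumors. The means were 6.87 ± 0.19 and 6.32 ± 0.19 (SD, n = 3), and the difference was -0.55 ± 0.14 (SE), with a 95% interval of -0.89 to -0.22. Dll4 ranked 191 of 19937 genes by limma p (unadjusted p = 0.00634). Its signals in TKI258 replicates 2 and 3 lay below the array medians. The difference was -0.65 to -0.45 when single arrays were left out.

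The other Delta ligand, Dll1, which many epithelial and stromal cells can present, was 6.54, 6.13 and 6.86 in water and 6.53, 6.65 and 6.42 in TKI258 tumors. The treated tumors lay inside the water range, and the difference was 0.02 ± 0.19 (SE). Jag1, a Jagged ligand of stalk cells, smooth muscle and many tumor cells, was 8.61, 8.43 and 8.79 in water and 8.77, 8.77 and 8.55 in TKI258 tumors. The groups overlapped, and the 95% interval of the Jag1 difference was -0.21 to 0.38. Jag2, the second Jagged ligand, varied least of the ligands: it was 6.65, 6.70 and 6.54 in water and 6.67, 6.62 and 6.51 in TKI258 tumors, with a 95% interval of -0.24 to 0.19. Its signals lay little above the array medians (6.38 to 6.44). Limma's adjusted p was 0.978 for Dll1, 0.850 for Jag1 and 0.938 for Jag2.

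Because Dll4 and Jag1 compete for the same receptors in sprouting vessels, their log2 signals were also subtracted within each tumor, a comparison chosen after the values were seen. Dll4 minus Jag1 was -1.77, -1.35 and -2.10 in water tumors and -2.25, -2.47 and -2.41 in TKI258 tumors. Every treated tumor was lower, with means of -1.74 ± 0.37 and -2.38 ± 0.11 (SD, n = 3). The group difference of -0.64 had an exact two-sided permutation p of 0.1, the smallest that 3 against 3 tumors allow, so the design cannot reach 0.05. The pair was chosen with the separate values of Dll4 and Jag1 in view, so this restates them and adds no support, and it does not show which transcript is more abundant.

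**Figure D2:**
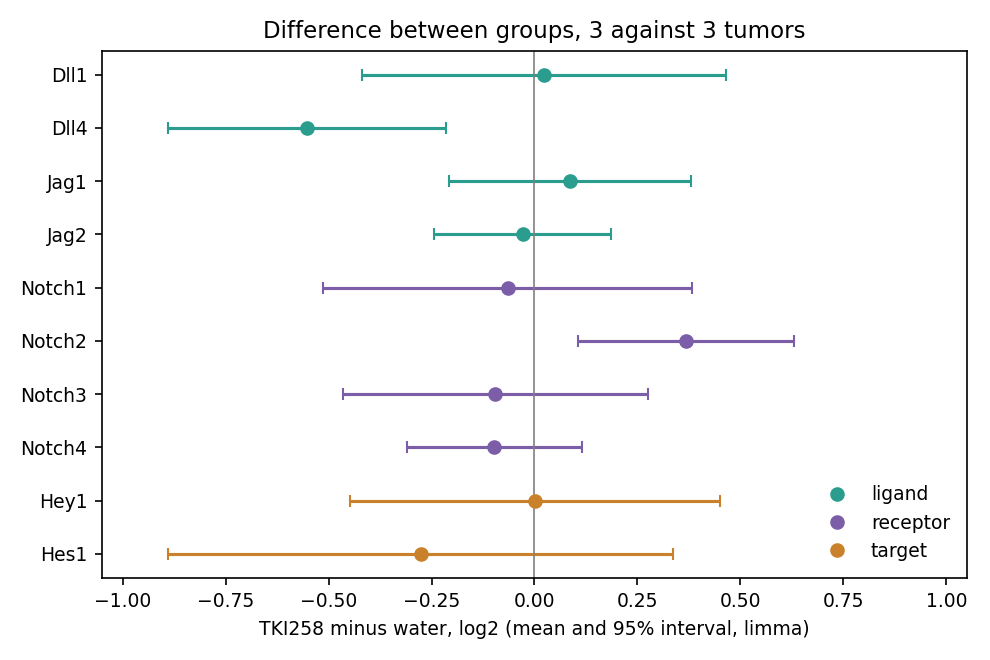
Difference between TKI258 and water tumors (log2) for each member, with the 95% interval of the limma fit, colored by role. The intervals of Dll4 (-0.89 to -0.22) and Notch2 (0.11 to 0.63) lie to either side of 0, and the other 8 hold 0.

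Of the receptors, Notch2 was the member whose treated tumors were all higher. Its log2 signal was 9.94, 10.002 and 9.79 in water and 10.35, 10.38 and 10.11 in TKI258 tumors. The lowest treated tumor, TKI258 replicate 3, was still above the highest water tumor, replicate 2. The means were 9.91 ± 0.11 and 10.28 ± 0.15 (SD, n = 3), the difference was 0.37 ± 0.11 (SE), and Notch2 ranked 378 of 19937 genes by limma p (unadjusted p = 0.0132). Notch2 is also made by B cells of the marginal zone. TKI258 replicate 3, highest in B cell markers, had the lowest Notch2 of the treated tumors, and without both tumors high in these markers the difference was 0.46 ± 0.12 (SE). Adipocyte marker means were higher in all 3 TKI258 tumors. The part of either cell type in the Notch2 difference was not tested.

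Notch1, the receptor that carries Dll4 signals in stalk cells and is used by many other cell types, was 8.11, 8.51 and 7.94 in water and 7.87, 8.12 and 8.38 in TKI258 tumors. The ranges overlapped widely, and the difference was -0.06 ± 0.19 (SE, limma adjusted p = 0.931). Notch3, the mural cell receptor, was 6.84, 7.29 and 6.83 in water and 6.82, 6.79 and 7.07 in TKI258 tumors. Water replicate 2 stood above the other 5 tumors, and the difference was -0.10 ± 0.15 (SE, limma adjusted p = 0.869). Notch4, the endothelial receptor, was 6.54, 6.68 and 6.48 in water and 6.42, 6.49 and 6.50 in TKI258 tumors. The groups overlapped only through water replicate 3, and the 95% interval was -0.31 to 0.11. Signals of Notch4 lay little above the array medians. The array holds 4 further probe sets that name Notch4 together with another gene, and these were not used.

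Of the targets, Hes1, a transcriptional repressor and a direct product of Notch signaling, was 8.76, 9.19 and 8.73 in water and 8.99, 8.79 and 8.07 in TKI258 tumors. TKI258 replicate 3 stood below every water tumor, while the other treated tumors lay inside the water range. The difference was -0.28 ± 0.26 (SE, limma adjusted p = 0.768), and it was -0.0015 without TKI258 replicate 3. Hey1, a related repressor active in endothelium, was 5.96, 5.86 and 5.41 in water and 5.68, 5.53 and 6.02 in TKI258 tumors. All 6 values lay below the array medians, and the difference of 0.00 ± 0.19 (SE) turned to -0.03 after quantile normalization and to -0.02 after median centring. With all 6 arrays, the 95% intervals of the 10 members lay between -0.89 and 0.63, inside a log2 difference of 1, a doubling, in either direction. Without TKI258 replicate 1, Dll4 differed by -0.65 ± 0.15 and Hes1 by -0.46 ± 0.26 (SE), so this need not hold with fewer arrays. The intervals are for array signal, which RMA compresses for dim probe sets, and do not exclude a doubling of the transcript. These intervals are not adjusted for the number of genes.

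The highest and lowest values were unevenly spread over the tumors. Water replicate 2 had the highest signal for 6 of the 10 members (Dll4, Jag2, Notch1, Notch3, Notch4 and Hes1) and the lowest for Dll1 and Jag1. Of all genes, 18.2% were highest and 29.3% lowest in that tumor. Of the other pathway genes, 17 of 46 were highest there. TKI258 replicate 3 had the lowest signal for Dll4, Jag2 and Hes1. It was also lowest for 21 of the 46 other pathway genes, against 28.2% of all genes. Limma's array weights, estimated from all probe sets, were lowest for TKI258 replicate 3 (0.44) and water replicate 2 (0.58). They were 1.13 to 1.78 in the other tumors. SDs within a group ran from 0.04 (Notch4, TKI258) to 0.49 (Hes1, TKI258).

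The vessel-linked members were set beside marker lists of the cells that make them. The mean of 10 tip cell markers, which include Esm1, Igfbp3 and Angpt2 but not Dll4, was 8.21, 8.57 and 8.10 in water and 7.51, 7.28 and 7.38 in TKI258 tumors. All 10 markers had lower means in TKI258 tumors and 8 had every TKI258 tumor below every water tumor, against 43.4% and 6.49% of all genes, and 0 passed limma's adjusted test. These markers were listed with earlier results of these data known, so their direction is no independent evidence. The mean of 23 general endothelial markers was 7.60, 7.66 and 7.31 in water and 7.22, 7.22 and 7.69 in TKI258 tumors. It overlapped between groups, with TKI258 replicate 3 the highest of all 6 tumors, and 15 of its markers had lower means. In 4 of the 23 the groups did not overlap, against 15.1% of all genes, so this count is near the share over all genes. Cd93 (-0.88 ± 0.22, SE), Emcn (-0.74 ± 0.16) and Flt1 (-0.37 ± 0.13) had every TKI258 tumor below, and Vwf (0.47 ± 0.12) had every TKI258 tumor above. The endothelial adhesion genes Cdh5 and Pecam1 differed by -0.51 ± 0.18 and -0.16 ± 0.34 (SE).

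Relative to the endothelial marker mean of the same tumor, Dll4 was -0.76, -0.59 and -0.61 in water and -0.70, -0.92 and -1.55 in TKI258 tumors. TKI258 replicate 1 lay inside the water range and TKI258 replicate 3 far below it. The group difference was -0.40 (exact two-sided permutation p = 0.2), and it was -0.16 without TKI258 replicate 3, the tumor with high B cell markers and the highest endothelial mean. Relative to the tip cell mean, a comparison chosen after the values were seen, Dll4 was -1.37, -1.50 and -1.41 in water and -0.998, -0.98 and -1.24 in TKI258 tumors. Here every treated tumor was higher, by 0.35 on average (exact two-sided permutation p = 0.1, the smallest possible). The tip cell mean differed by -0.90 and the median of its markers by -0.60, against -0.55 for Dll4. Igfbp3 (-2.24) and Esm1 (-2.14) had the largest differences of the list, and Apln (-0.47), Cxcr4 (-0.45), Col4a1 (-0.45) and Pdgfb (-0.11), named after their values were seen, had smaller ones than Dll4. Notch4 relative to the endothelial mean differed by 0.05 (water -0.96 ± 0.12, TKI258 -0.90 ± 0.25, SD, n = 3, exact permutation p = 0.8). Notch3 relative to the mean of 11 mural markers also differed by 0.05 (water -0.58 ± 0.23, TKI258 -0.53 ± 0.12, SD, n = 3, exact permutation p = 0.8), and the mural mean itself was 7.54 to 7.61 in water and 7.23 to 7.54 in TKI258 tumors.

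**Figure D3:**
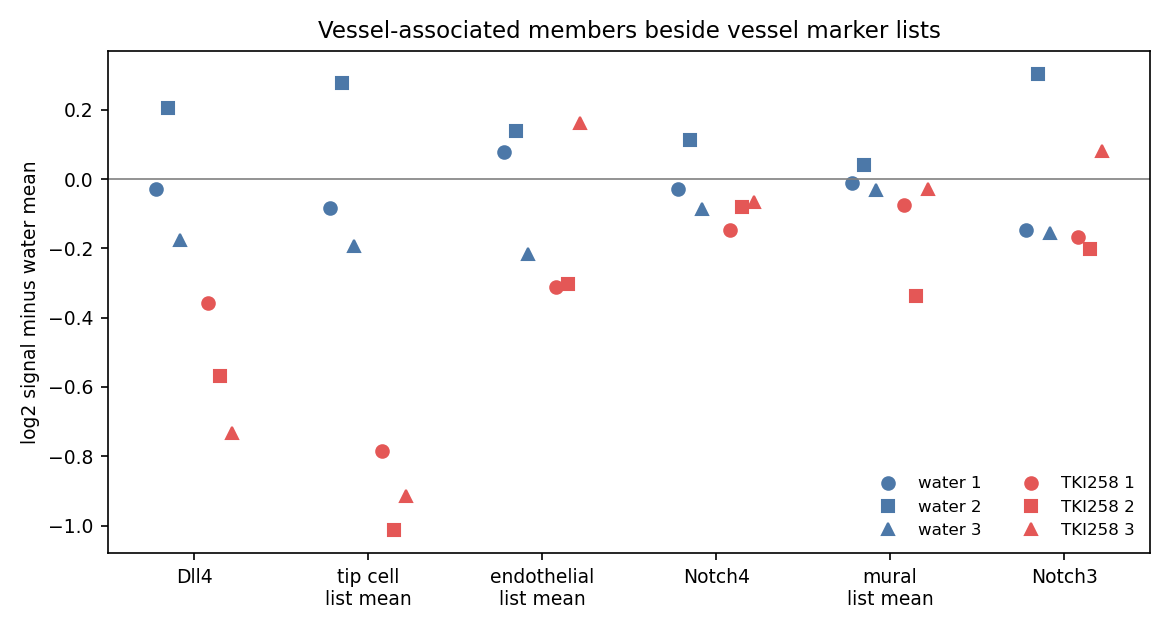
Log2 signal minus the water mean for Dll4, Notch4 and Notch3 and for the means of the tip cell (10 genes), endothelial (23) and mural (11) marker lists, with 1 point per tumor. Dll4 and the tip cell mean are lower in all 3 TKI258 tumors, and the endothelial mean of TKI258 replicate 3 lies above all water tumors.

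The genes whose pattern over the 6 tumors was most like that of Dll4, the member with the smallest limma p, were Iars2, which encodes the mitochondrial isoleucyl-tRNA synthetase (Pearson r = 0.996), Tbce, a tubulin folding cofactor (0.993), and Rala, a RAS-like GTPase (0.990). These were taken from 10909 genes with signal above the table median, of which 62 reached r of 0.95. The 6 points fall into the groups compared and the arrays share their normalization, so r is given as a description only. Iars2, Tbce and Rala differed by -0.23, -0.10 and -0.25.

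Beyond the 10 members, 46 other genes of the pathway were analysed. Of these, 25 had a lower and 21 a higher mean in TKI258 tumors, against 43.4% of all genes with a lower mean. In either direction 0 passed limma's adjusted test. An unadjusted limma p under 0.05 was reached by 1, against 7.14% of all genes, so the count gives no result about these genes. Their median difference was -0.02, against 0.02 over all genes. In 6 of them the groups did not overlap, 1 lower and 5 higher, against 15.1% of all genes.

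The gene with the unadjusted p under 0.05 was Lfng, which encodes lunatic fringe, a glycosyltransferase that modifies Notch receptors and favors their response to Delta over Jagged ligands. Lfng was 8.21, 8.08 and 8.12 in water and 8.40, 8.53 and 8.74 in TKI258 tumors. All treated tumors were higher, and the difference was 0.42 ± 0.11 (SE, limma adjusted p = 0.567). The other fringe genes were uneven: Rfng (radical fringe) differed by -0.30 ± 0.15, and Mfng (manic fringe), named after its value was seen, by 0.41 ± 0.26 (SE). Pofut1 and Poglut1, which add the first sugars to the receptor, differed by 0.02 and -0.18.

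Mfng and Dtx1, which encodes a Deltex ubiquitin ligase acting on Notch, were both highest in the tumor that led in B cell markers. In TKI258 replicate 3 Mfng was 7.36 and Dtx1 7.31, against 6.24 to 6.50 and 6.24 to 6.66 in the other 5 tumors. Lfng was also highest there, at 8.74. In TKI258 replicates 1 and 2, Lfng was 8.40 and 8.53 and the B cell mean 4.83 and 4.94. Without both tumors high in B cell markers, the differences were 0.37 ± 0.11 for Lfng, 0.18 ± 0.11 for Mfng, 0.28 ± 0.13 for Dtx1 and -0.11 ± 0.12 for Rfng (SE), against 0.43 ± 0.23 for Dtx1 with all tumors. Without TKI258 replicate 3 alone, Mfng differed by 0.093, Dtx1 by 0.18 and Rfng by -0.14. The part of B cells in these differences was not tested.

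**Figure D4:**
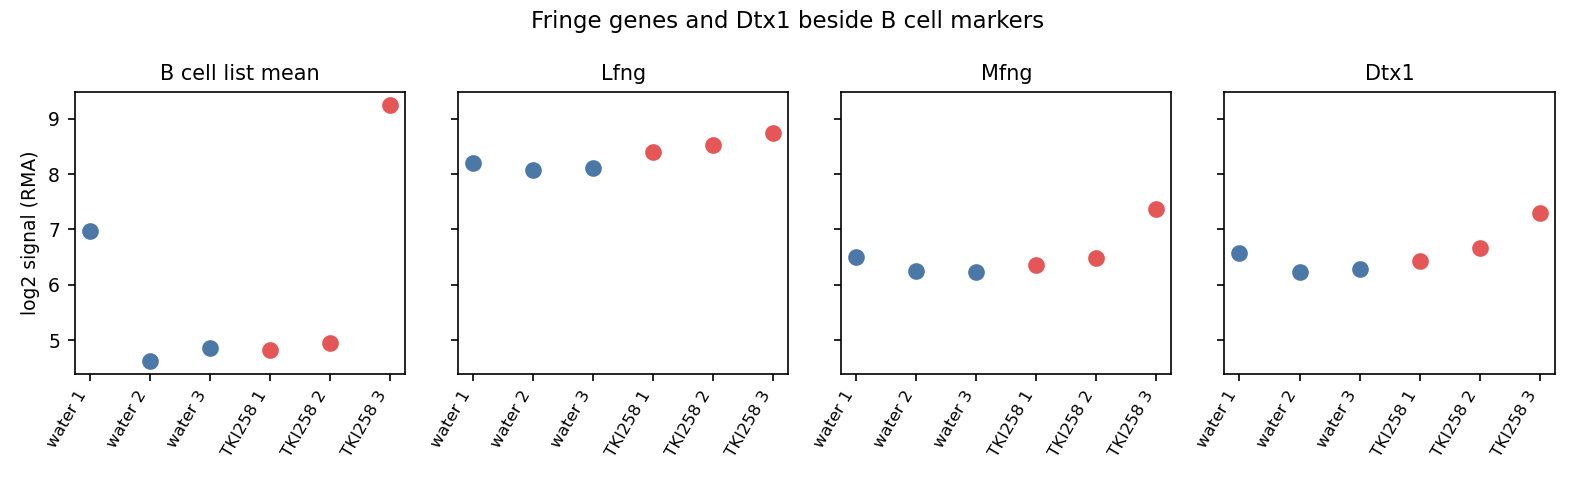
Log2 signal in each tumor for the mean of 7 B cell markers and for Lfng, Mfng and Dtx1, with water tumors in blue and TKI258 tumors in red. TKI258 replicate 3 is highest in each panel, and Lfng in TKI258 replicates 1 and 2 (8.40 and 8.53) lies above the water tumors.

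Among the other ligands, all 4 had higher means in TKI258 tumors, as did 11287 of all 19937 genes. Dll3, a Delta-like protein that acts inside the cell making it, differed by 0.23 ± 0.11 and Dlk2, a Delta-like membrane protein, by 0.17 ± 0.09 (SE), and the groups overlapped for neither. Dner and Dlk1 differed by 0.09 and 0.06, and their groups overlapped. Dll3 and Dner lay below the array medians in all 6 tumors. Of the genes for ligand endocytosis, which gives the pull that opens the receptor, Neurl1a was higher in all treated tumors (0.17 ± 0.09, SE) and Neurl1b differed by -0.14 ± 0.13 (SE), or -0.013 without water replicate 2.

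Of 9 measured receptor processing genes, 8 had lower means in TKI258 tumors, against 43.4% of all genes. The groups overlapped for 7 of the 9. The gene with a higher mean was Psen2, a catalytic subunit of gamma-secretase. It was 8.26, 8.31 and 8.30 in water and 8.43, 8.37 and 8.73 in TKI258 tumors. All treated tumors lay above the water tumors, and the difference was 0.22 ± 0.11 (SE), or 0.11 without TKI258 replicate 3. Adam17, a protease that can make the cut outside the membrane, was 10.35 to 10.44 in water and 10.20 to 10.32 in TKI258 tumors, a difference of -0.13 ± 0.08 (SE). Neither passed limma's test (adjusted p = 0.660 and 0.694). Ncstn and Aph1a, named after their values were seen, differed by -0.13 and -0.01. Without both tumors high in B cell markers they differed by 0.03 and 0.09, while the rest of the 8 stayed lower.

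In the nuclear steps the differences were small and the groups overlapped for all 11 genes. Rbpj, the DNA-binding partner of Notch, differed by -0.10 ± 0.10, the Mastermind gene Maml3 by -0.17 ± 0.12, and the corepressor genes Cir1 and Tle1 by -0.18 ± 0.12 and -0.07 ± 0.14 (SE). Without TKI258 replicate 3, Rbpj differed by -0.0092, Maml3 by -0.066, Cir1 by -0.097 and Tle1 by 0.0098. With probe sets averaged per gene, Cir1 differed by -0.30 ± 0.13 (SE, limma adjusted p = 0.603). Of 8 receptor turnover genes, 4 were lower and 4 higher in mean, against 43.4% of all genes with a lower mean. Dtx4 differed by -0.12 ± 0.15 (SE), or 0.0028 without TKI258 replicate 3.

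Of the other targets, Nrarp, which encodes a protein that limits Notch signaling and is induced by it, had the largest difference of the 46 genes. It was 8.57, 9.24 and 8.24 in water and 8.04, 8.56 and 7.83 in TKI258 tumors. The groups overlapped through TKI258 replicate 2, and the difference was -0.54 ± 0.29 (SE, limma adjusted p = 0.670). It was -0.26 without water replicate 2, where Nrarp, Dll4 and the tip cell mean were highest. Heyl differed by -0.11 ± 0.11 (SE), and Hes5, Hey2 and Efnb2 by 0.08, 0.06 and -0.05.

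**Figure D5:**
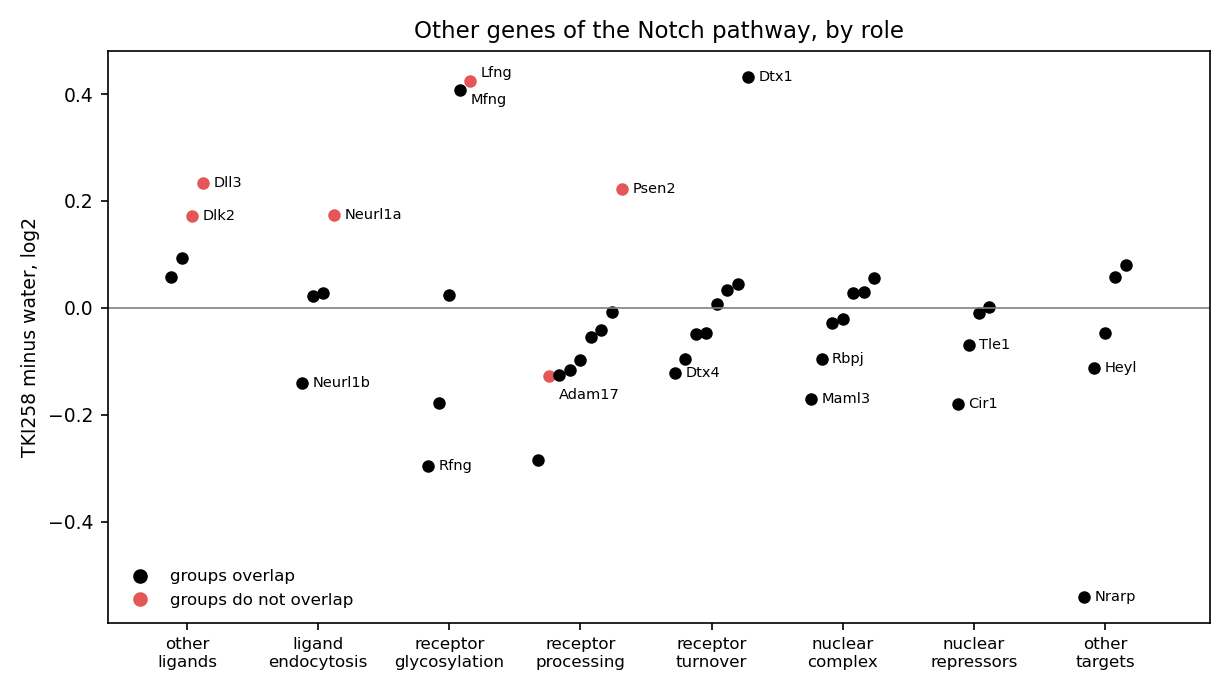
Difference between TKI258 and water tumors (log2) for 46 further Notch pathway genes, grouped by role, with red points where the 3 treated tumors do not overlap the 3 water tumors. Nrarp (-0.54) lies lowest and Dtx1 (0.43), Lfng (0.42) and Mfng (0.41) highest.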

How the data were processed

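RNA from 3 water and 3 TKI258 tumors was measured on 1 Affymetrix Mouse Gene ST array each. The deposited table holds log2 signals that the authors computed with RMA, which corrects background, equalizes arrays and summarizes probes; affy and limma are named too, per the submitters' processing notes. Sources used here state neither versions nor a genome build. RMA compresses differences of dim probe sets, and the number of arrays limits the precision.

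Of 34760 probe sets, 21640 named 1 gene in the platform annotation, 1321 named several and 11799 none. Of those naming 1 gene, 21553 matched the RefSeq table (GRCm38.p6) by Entrez number and 0 symbols changed. Each gene took its probe set with the highest mean.

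Groups were compared with limma (version 3.58.1, R 4.3.3) and eBayes, two-sided, unfiltered, with Benjamini-Hochberg adjustment over all probe sets and a threshold of 0.05. The fit was also run on simulated data with independent noise and planted changes of a doubling or more. That run does not bear on the smaller differences of the members. Differences are TKI258 minus water. Samples are biological replicates per the labels, so the spread is between tumors.

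Members, pathway and marker lists were chosen with earlier results of these data known. Named genes are the members, up to 2 pathway genes per role with the smallest p, the 3 genes most like Dll4 and a few defining markers. Others are marked in the text, and some pathway genes are not reported here. Counts of lower means and of separated groups were added after seeing the data. Alternatives were a low-signal filter, quantile normalization, median centring, a replicate block, arrays left out, other priors, weighted arrays, probe sets averaged per gene, and marker medians.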

Additional observations from a re-analysis of the deposited data

How the results depend on the processing

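Under the 14 alternatives of the gene tests, 0 members and 0 other pathway genes passed limma's adjusted test in either direction, although over the whole array 3 probe sets passed without water replicate 1, and 1 passed when TKI258 replicate 3 was left out as well. Dll4 stayed lower (-0.65 to -0.43, adjusted p 0.412 to 0.852) and Notch2 higher (0.31 to 0.46, adjusted p 0.348 to 0.834) in each, and Notch4 and Hes1 kept their direction. The low-signal filter left out Hey1. The direction of smaller differences turned in 17 of 139 member results. That count leaves out the other genes and the marker comparisons that are also listed below. After quantile normalization and median centring the result that turned was Hey1 (-0.028 and -0.016). With array weights it was Dll1 (-0.048), Jag2 (0.021), Hey1 (-0.040), Tle1 (0.027) and Dtx4 (0.0091). Without water replicate 1 and TKI258 replicate 3 together, the tumors rich in B cell markers, it was Jag2 (0.026), Hey1 (-0.029) and Notch3 minus the mural mean (-0.047), and with the median of the mural list Notch3 again (-0.054). With single arrays left out, differences ranged from -0.17 to 0.20 (Dll1), -0.0038 to 0.18 (Jag1), -0.073 to 0.017 (Jag2), -0.19 to 0.096 (Notch1), -0.18 to 0.057 (Notch3), -0.17 to 0.11 (Hey1), -0.17 to 0.044 (Tle1), -0.21 to 0.0028 (Dtx4), -0.54 to 0.077 (Pecam1), -0.032 to 0.19 (Notch4 minus the endothelial mean) and -0.018 to 0.18 (Notch3 minus the mural mean). The number of pathway genes whose groups did not overlap, 6 with all tumors, was 7 to 14 with single arrays left out and 13 without that pair, where fewer tumors make separation easier. Dll4 minus Jag1 stayed between -0.82 and -0.45. The cause of the other turns was not tested.

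Replicate numbers are shared between groups in the labels. The deviations of same-numbered arrays correlated at -0.23, 0.19 and 0.01, and 2 of 6 arrays correlated best with their own number. These values show no pairing of the tumors, but with 3 tumors per group they cannot exclude it. With the replicate block 0 members and 0 pathway genes passed, as without it, and Dll4 and Notch2 had limma adjusted p of 0.558 and 0.613. Nrarp differed by -0.54 ± 0.11 (SE) with the block, against an SE of 0.29 without it (limma adjusted p = 0.558 and 0.670). Signals of Hey1, Dll3, Dner and, in part, Dll4, Dll1, Mfng, Heyl and Dtx1 near or below the array medians limit what their values can show. The same holds for Jag2 and Notch4, whose signals lay little above the array medians, so their small spread need not mean stable transcripts.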
